A study of Mus musculus with 9 samples.

Results

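The genes described here are 9 receptors and adaptors through which metabolic hormones act on a cell: the insulin receptor Insr, the insulin-like growth factor receptor Igf1r, the insulin receptor substrates Irs1 and Irs2, the receptors of prolactin (Prlr), growth hormone (Ghr) and leptin (Lepr), and the adiponectin receptors Adipor1 and Adipor2. They were taken by symbol from deposited tables of 23256 genes, all 9 were found, and all 9 passed the filter on low counts that left 14912 genes for testing. Polyadenylated RNA of 2 salivary glands, the submandibular and the sublingual, was sequenced in 3 groups of 3 libraries, and the mice were C57BL/6 females 34 weeks old. Control mice ate chow. Diet-induced obese (DIO) mice ate a diet with 60% of its calories from fat for 20 weeks from 4 weeks of age. Sleeve gastrectomy (SG) mice were made obese in the same way and had about 80% of the stomach removed at 24 weeks of age, after a 12-hour fast and under isoflurane. No sham operation is named, nor the diet eaten between 24 and 34 weeks, so SG and DIO differ by the operation and by whatever diet followed it. Nothing states that the libraries of a group are from different mice, and the p-values therefore reflect library-to-library spread that could be technical.

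Insulin and insulin-like growth factor 1 bind receptor tyrosine kinases that phosphorylate the insulin receptor substrates. The substrates then recruit phosphatidylinositol 3-kinase, which activates the kinase Akt and keeps FoxO transcription factors out of the nucleus. Prolactin, growth hormone and leptin act through class I cytokine receptors, which have no kinase of their own and signal through JAK2 and STAT proteins. Adiponectin, a hormone of fat cells, binds receptors with 7 membrane passes of the PAQR family, which act through AMP-activated kinase and ceramide breakdown. Transcription of Irs2 is known to be held down by insulin and raised by FoxO factors in liver, where its promoter is a classic example of insulin control.

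The promoters of the substrate genes are shown because the largest differences among the 9 genes were in Irs2 and not in Irs1. Each line gives the 250 bases before the RefSeq transcription start on the gene's own strand, 5′ to 3′ (RefSeq, build GRCm38.p6, minus strand of the chromosome; Irs1 at chr1:82291440-82291689 and Irs2 at chr8:11008930-11009179). Capitals mark the E-box CACGTG and the letters TGTTTTG, the core of insulin response elements. Both were searched on both strands, and overlapping matches were kept.
Irs1: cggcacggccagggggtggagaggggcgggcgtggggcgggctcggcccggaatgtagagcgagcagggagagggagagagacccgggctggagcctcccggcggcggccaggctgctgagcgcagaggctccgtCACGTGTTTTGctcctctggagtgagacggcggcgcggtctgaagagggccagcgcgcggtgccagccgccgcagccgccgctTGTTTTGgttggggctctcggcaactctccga
Irs2: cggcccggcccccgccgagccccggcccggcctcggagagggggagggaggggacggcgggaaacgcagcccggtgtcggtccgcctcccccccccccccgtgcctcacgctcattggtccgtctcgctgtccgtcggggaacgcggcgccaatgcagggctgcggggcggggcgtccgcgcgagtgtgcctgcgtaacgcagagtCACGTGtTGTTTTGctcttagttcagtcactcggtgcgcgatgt

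The E-box began 115 bases before the start site in Irs1 and 44 bases before it in Irs2. In Irs1 the insulin response element core overlapped the E-box, beginning 4 bases after the E-box began, and in Irs2 it began 7 bases after. CACGTG was present in 6.02% and TGTTTTG in 5.56% of the 32851 promoter windows of the same length in the RefSeq table. A window in which TGTTTTG began within 16 bases after CACGTG on the same strand was found 9 times, 0.0274% of all windows. This pairing was looked for only after the Irs1 and Irs2 windows had been read, and the 16-base limit was set then. Another member of the substrate family, Irs4, was among the 9 windows, and 34 bases around the E-box of each gene (Irs1 at chr1:82291531-82291564, Irs2 at chr8:11008950-11008983 and Irs4 at chrX:141725348-141725381, minus strand, GRCm38.p6) are set side by side to show the likeness.
Irs1: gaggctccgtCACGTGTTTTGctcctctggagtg
Irs2: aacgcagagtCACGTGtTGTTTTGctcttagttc
Irs4: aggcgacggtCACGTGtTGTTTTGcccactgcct
Of the 9 genes, 8 had at least 1 window in the table, 13 windows in all, and Insr was not among them. The FoxO motif GTAAACA, present in 3.17% of all windows, was found in Adipor2 and in Prlr. The letters TGTTTTG were also found in Lepr. The cAMP response element TGACGTCA (1.55% of all windows) was found in 0 of the 13. The STAT motif TTCNNNGAA (7.02%) was found in 1 window, of Prlr. These matches are letters in a window, and binding was not measured.

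The libraries held 36349885 to 43495564 counts, and a detection floor of 3 counts lay between 0.0676 and 0.0833 CPM. Levels below are CPM (counts scaled to TMM-adjusted library totals) for comparing libraries and FPKM (fragments scaled to gene length and library size, as deposited) for comparing genes. Control 2 stood apart, with a mean rank correlation with the other libraries of 0.973 against 0.985 to 0.987 for the other 8. Summed markers of the labelled glands were high in all 9 libraries, at 97292 to 140852 CPM for 9 serous acinar genes. The sums were 22178 to 39016 CPM for 8 granular duct genes and 989 to 2388 CPM for 4 mucous genes. Prol1, Klk1 and Muc19 made up most of these sums, while listed genes such as Ren1 (0.889 to 4.28 CPM) and Fcgbp (4.14 to 9.64 CPM) were low. Markers of parotid acini, a gland not named in the labels, summed to 1095 to 8246 CPM in 8 libraries and 33973 CPM in control 2. Most of this sum was Bpifa2 in every library (1079 CPM in SG 2). Other genes of the list were low in SG 2, with Dnase1 at 3.38 CPM and Prb1 at 0. Whether a library held parotid tissue was not tested. The parotid marker Amy1 ran from 11.8 CPM in SG 2 to 8377 CPM in control 2. In such bulk tissue, fewer cells of a type and less RNA per cell cannot be told apart.

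The 9 genes covered a wide range of levels. Over the 9 libraries, mean FPKM ran from Adipor1 (29.0 ± 2.60, SD, n = 9) through Adipor2 (15.96 ± 1.30), Ghr (12.5 ± 1.48), Insr (6.49 ± 0.389), Irs2 (2.82 ± 1.41), Prlr (2.50 ± 0.309), Igf1r (2.18 ± 0.365) and Irs1 (0.777 ± 0.128) to Lepr (0.255 ± 0.172). Adipor1 lay above 92.2% of the genes tested and Lepr above 14.1%. For 4 steps of this order the ranges of the neighbours did not overlap over the 9 libraries: Adipor1 above Adipor2, Ghr above Insr, Insr above Irs2, and Igf1r above Irs1. Adipor2 exceeded Ghr in 8 of 9 libraries and Irs1 exceeded Lepr in 9 of 9, although the ranges over libraries overlapped. Irs2, Prlr and Igf1r could not be ordered beyond their spread: Irs2 exceeded Prlr in 3 of 9 libraries and Prlr exceeded Igf1r in 6 of 9.

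**Figure D1:**
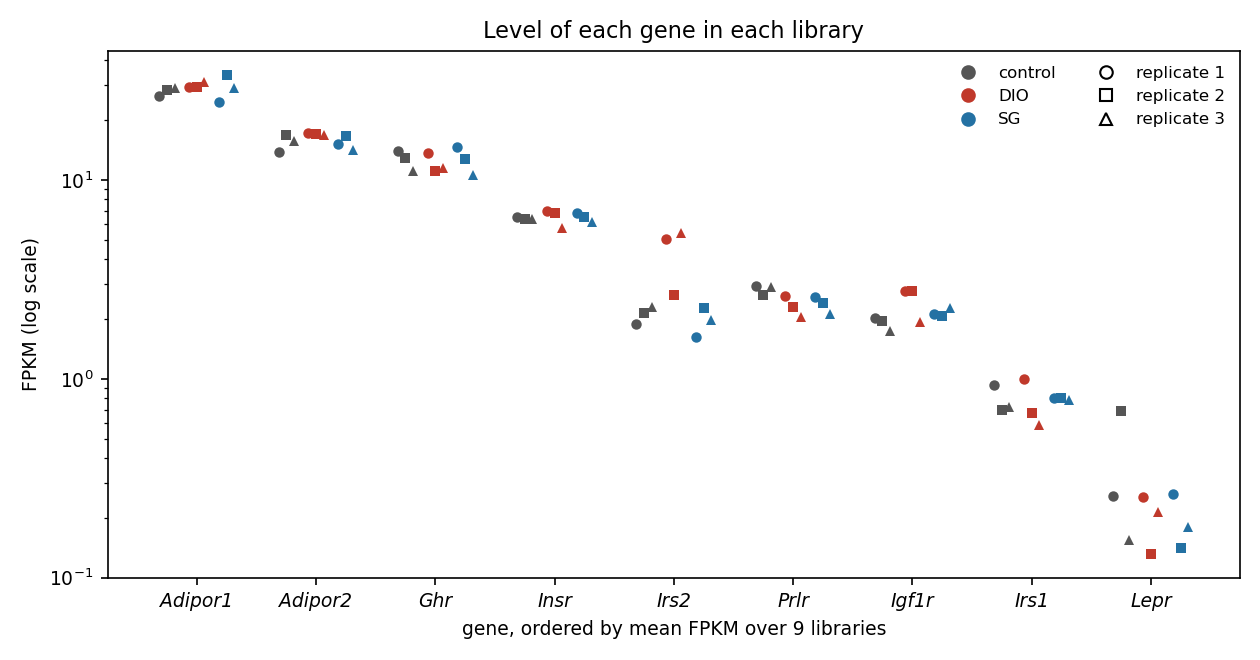
FPKM (log scale) of each of the 9 genes in each of the 9 libraries; colour gives the group and marker shape the replicate number. Adipor1 sits between 24.7 and 33.9 FPKM in all libraries, while Irs2 stands at 5.07 and 5.41 in DIO 1 and DIO 3 and between 1.62 and 2.64 elsewhere, and Lepr at 0.693 in control 2 and between 0.132 and 0.265 elsewhere.

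The spread between libraries of a group differed widely among the 9 genes. The biological coefficient of variation that edgeR assigns to each gene was 8.57% for Insr and 8.67% for Adipor2, lower than in all but 5.15% and 5.93% of the genes tested, and 9.18% for Prlr, with 11.2% of genes lower. It was 11.1% for Adipor1, with 29.9% of genes lower, 11.2% for Igf1r, 11.8% for Ghr, 17.6% for Irs1 and 20.3% for Irs2. Lepr had the widest spread, 41.7%, more than 89.8% of genes.

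With all libraries in the fit, none of the 9 genes passed the threshold of 0.05 on adjusted p in any comparison (edgeR's quasi-likelihood test with Benjamini-Hochberg adjustment over 14912 genes). In DIO against control 0 of 9 passed, beside 0.0939% of all genes tested (0.0536% higher and 0.0402% lower). SG against DIO gave 0 of 9, and SG against control likewise 0 of 9, beside 0% of all genes each time. A single test for any difference among the 3 groups also called 0 of 9 (0.0335% of all genes), with the smallest adjusted p for Irs2 (0.205) and Prlr (0.305). At an unadjusted p under 0.05, 3 of 9 differed between DIO and control, Irs2 and Igf1r higher and Prlr lower, beside 10.3% of all genes (5.22% higher and 5.08% lower). Between SG and DIO it was 1 of 9, Irs2, lower, beside 8.93% of all genes (3.78% higher and 5.15% lower). Between SG and control it was 1 of 9, Prlr, lower, beside 8.10% (3.47% higher and 4.63% lower), and for any difference among the 3 groups 2 of 9, Irs2 and Prlr, beside 10.1%. DESeq2, run as an alternative, called Irs2 and Prlr in DIO against control and Irs2 in SG against DIO. The median log2 fold change of the 9 genes was -0.07 for DIO against control (all genes tested, 0.01), 0.05 for SG against DIO (all genes, -0.0047) and -0.02 for SG against control (all genes, 0.0012). The comparisons share groups, so their values are not independent of each other.

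**Figure D2:**
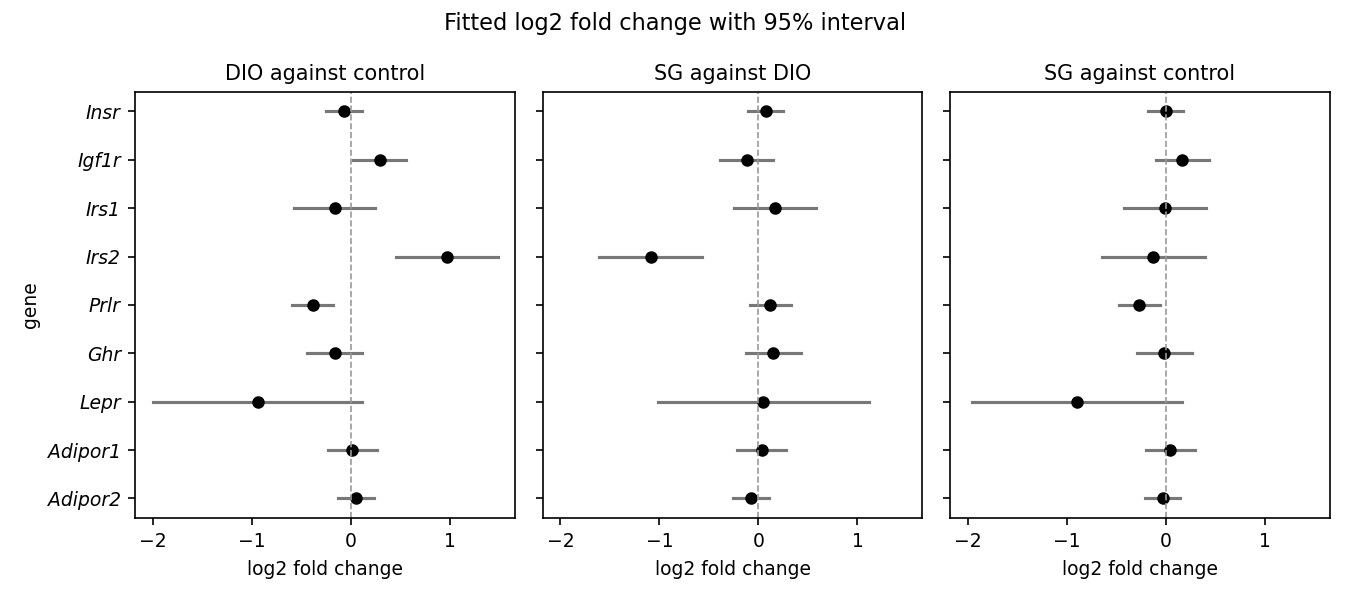
Fitted log2 fold change (point) and its 95% interval (line; per gene, not adjusted for the number of genes) of each of the 9 genes in the 3 comparisons, with 0 as a dashed line. The intervals of Irs2 lie away from 0 in DIO against control (0.45 to 1.48) and SG against DIO (-1.61 to -0.57), that of Prlr in both comparisons with control, that of Igf1r narrowly in DIO against control, and those of Lepr are the widest.

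Irs2, the substrate that carries much of insulin's action in liver and beta cells, was higher in all DIO libraries than in any other library, without passing the threshold. It measured 13.7, 14.2 and 16.2 CPM in control 1 to 3, 31.0, 17.1 and 38.1 CPM in DIO 1 to 3, and 11.3, 14.8 and 14.5 CPM in SG 1 to 3. DIO 1 and DIO 3 stood far above the rest, whereas DIO 2 lay just above control 3, the highest control library. The groups averaged 14.7 ± 1.32, 28.7 ± 10.7 and 13.5 ± 1.97 CPM (SD, n = 3 each).

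The fitted difference in Irs2 between DIO and control was 0.97 on the log2 scale (SE 0.23, 1.95-fold, 95% interval 1.36 to 2.79, adjusted p = 0.211). Between SG and DIO it was -1.09 (SE 0.24, 0.470-fold, interval 0.328 to 0.674, adjusted p = 0.315), and between SG and control -0.12 (SE 0.24, 0.918-fold, interval 0.639 to 1.32, adjusted p = 0.931). By unadjusted p, 0.805% of genes ranked before Irs2 in the first comparison and 0.235% in the second. The DIO libraries did not overlap the control libraries for 2 of 9 genes, Irs2 above and Prlr below, beside 16.3% of all genes (8.94% above and 7.38% below). The SG libraries did not overlap the DIO libraries for 1 of 9, Irs2, which was below, beside 16.3% of all genes (6.57% above and 9.74% below). Without DIO 2 the difference from control was 1.21 (adjusted p = 0.0411), and without DIO 3 it was 0.71 (0.414). Without control 2 the difference of SG from DIO was -1.08 (0.0499).

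The summed level of serous acinar markers stood lowest in the same libraries in which Irs2 was highest. The 9 serous markers, none at 0 in any library, summed to 111415 and 97292 CPM in DIO 1 and DIO 3, against 134152 CPM in DIO 2. They summed to 116523 to 135743 CPM in the control libraries and 121555 to 140852 CPM in the SG libraries. Most of the sum was Prol1, at 68155 and 54865 CPM in DIO 1 and DIO 3. Prol1 and Slc12a2 were lowest in these libraries, and the other genes of the list did not follow this order. Bhlha15 was highest of all libraries in DIO 3 (589 CPM) and Dcpp3 in DIO 1 (11620 CPM). In SG against DIO, 2 of 15 marker lists were lower and 1 was higher in every SG library, beside 9.74% and 6.57% of single genes tested. B cell markers (8 genes, 2.82 to 6.11 CPM, against 13.8 to 39.8 CPM) and T cell markers (4 genes, 1.97 to 2.53 against 6.21 to 16.5 CPM) were lower. Duct and ionocyte markers (9 genes, 969 to 1060 against 849 to 960 CPM) were higher. The B cell gene Fcer2a was at 0 in SG 1. The part of these markers in the Irs2 result was not tested, and the markers that differed between DIO and control are given with Prlr.

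Irs1, the substrate that predominates in muscle and fat, showed no such pattern. It measured 9.12, 6.24 and 6.86 CPM in control 1 to 3, 8.25, 5.90 and 5.60 CPM in DIO and 7.47, 7.01 and 7.66 CPM in SG, and the groups overlapped. The log2 differences were -0.17 for DIO against control (SE 0.19, 0.890-fold, interval 0.668 to 1.19), 0.16 for SG against DIO (SE 0.19, 1.12-fold, interval 0.841 to 1.49) and -0.0040 for SG against control (SE 0.19), with adjusted p-values of 0.815, 0.845 and 0.997. In the GENCODE vM21 annotation, exons of Irs1 and Irs2 overlap genes on the opposite strand (Gm9747 over 2822 bases and 9530052E02Rik over 162 bases). Whether the counting used strand is not given, and 9530052E02Rik reached at most 0.217 FPKM.

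Because both substrates were scaled alike within a library, their ratio can be read without a choice of normalization. By FPKM, the ratio of Irs1 to Irs2 lay between 0.314 and 0.493 in the control libraries, between 0.109 and 0.256 in the DIO libraries and between 0.351 and 0.492 in the SG libraries. The DIO ratios did not overlap those of control or SG. On the log2 scale the ratio differed by -1.06 for DIO minus control and by 1.21 for SG minus DIO (exact permutation test, two-sided, p = 0.1 for both, the smallest that 3 against 3 libraries can give; adjusted p = 0.225 over 9 tests of 3 ratios). SG and control differed by 0.14 (exact permutation p = 0.600).

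**Figure D3:**
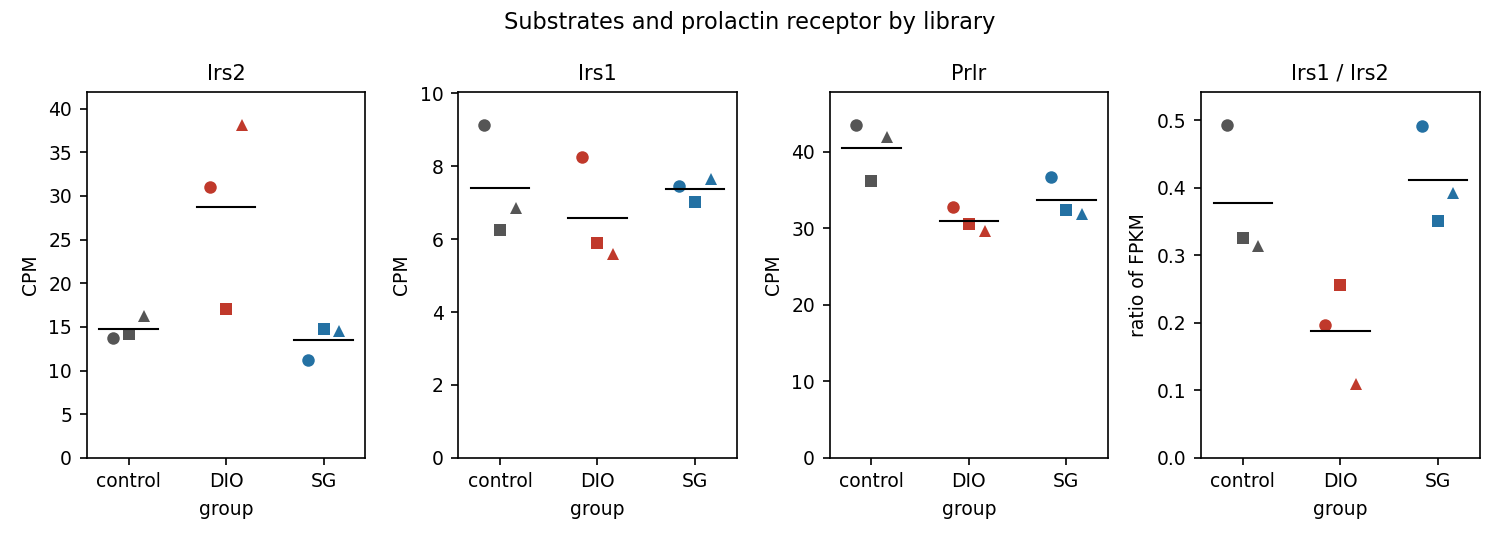
CPM of Irs2, Irs1 and Prlr and the ratio of Irs1 to Irs2 by FPKM in each library, by group; bars are group means and marker shape gives the replicate number (circle 1, square 2, triangle 3). Irs2 reaches 31.0 and 38.1 CPM in DIO 1 and DIO 3 and 17.1 in DIO 2, Irs1 overlaps between groups, and the ratio is at most 0.256 in DIO and at least 0.314 in control.

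Among the receptor kinases, Igf1r, which drives growth and survival signals, had a higher mean in DIO than in control, with overlapping libraries. It measured 27.8, 24.7 and 23.4 CPM in control 1 to 3, 32.5, 34.1 and 26.0 CPM in DIO and 28.1, 25.7 and 31.5 CPM in SG. DIO 3 lay within the control range and the other DIO libraries above it. The log2 difference was 0.29 for DIO against control (SE 0.12, 1.22-fold, interval 1.02 to 1.47, adjusted p = 0.441), -0.12 for SG against DIO (SE 0.12, adjusted p = 0.822) and 0.17 for SG against control (SE 0.12, adjusted p = 0.754). Without DIO 2 the first of these was 0.19.

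Insr, the receptor through which insulin lowers blood glucose, had narrow and overlapping ranges. The control libraries ranged over 58.5 to 65.7 CPM, the DIO libraries over 56.2 to 61.5 CPM and the SG libraries over 58.5 to 65.6 CPM. The fold difference was 0.950 for DIO against control (interval 0.839 to 1.08, adjusted p = 0.814), 1.05 for SG against DIO (0.928 to 1.19, adjusted p = 0.844) and 0.999 for SG against control (0.882 to 1.13, adjusted p = 0.998). Scaled by library totals instead, the first difference turned from -0.07 to 0.02 on the log2 scale. The ratio of Insr to Igf1r by FPKM was between 3.25 and 3.68 in the control libraries, between 2.48 and 2.98 in the DIO libraries and between 2.72 and 3.22 in the SG libraries. DIO lay below control in every library (log2 difference -0.35, exact permutation p = 0.1, adjusted p = 0.225), as did SG (-0.17, exact permutation p = 0.1, adjusted p = 0.225).

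Of the cytokine-type receptors, Prlr was lower in every DIO library than in any control library, without passing the threshold. Prlr, the prolactin receptor, measured 43.4, 36.2 and 41.9 CPM in control 1 to 3, 32.8, 30.6 and 29.7 CPM in DIO, and 36.7, 32.4 and 31.9 CPM in SG. Control 2 was the lowest control library and lay below SG 1, so SG and control overlapped (0 of 9 genes were apart in SG against control; 11.8% of all genes, 6.63% above and 5.22% below). The log2 difference was -0.39 for DIO against control (SE 0.09, 0.765-fold, interval 0.663 to 0.883, adjusted p = 0.211), 0.12 for SG against DIO (SE 0.09, 1.09-fold, interval 0.940 to 1.25, adjusted p = 0.758) and -0.27 for SG against control (SE 0.09, 0.830-fold, interval 0.720 to 0.958, adjusted p = 0.568). Without control 2 the first of these was -0.48 (adjusted p = 0.04705), and DESeq2 gave an adjusted p of 0.0317. Other fits were weaker. With library totals in edgeR the difference was -0.29 (adjusted p = 0.352), and limma on log2(FPKM + 0.1) gave -0.28 (adjusted p = 0.439). Without DIO 1 and without DIO 2 edgeR gave adjusted p-values of 0.473 and 0.480.

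The Prlr and Irs2 differences between DIO and control stood beside differences in markers of several cell types. For 2 of 15 marker lists the summed levels of these groups did not overlap, beside 16.3% of single genes tested. Endothelial markers (6 genes, none at 0) summed to 79.3 to 84.7 CPM in the DIO libraries and 89.5 to 114 CPM in the control libraries. Red blood cell markers (4 genes, none at 0) summed to 63.8 to 121 CPM in the DIO libraries and 41.4 to 62.8 CPM in the control libraries. In other lists single genes were apart although the sums overlapped. Of 4 tested parotid acinar markers, 3 were lower in every DIO library than in any control library (7.38% of all genes). All 4 were lower with an unadjusted p under 0.05 (5.08% of all genes), with a median log2 fold change of -4.59. Control 2 was the highest library for each of the 4. Bpifa2 overlapped between the groups, at 1951 CPM in control 3 and 2321 CPM in DIO 1. Amy1, salivary amylase, measured 1673, 8377 and 412 CPM in control 1 to 3 and 240, 12.3 and 101 CPM in DIO 1 to 3. In SG 1 to 3 it measured 1673, 11.8 and 48.5 CPM, so it also varied widely within a group. Of 8 granular duct markers, 4 were higher in every DIO library (8.94% of all genes), all 4 of them kallikreins. These 4 had an unadjusted p under 0.05 (5.22% of all genes, higher), and the median of the 8 was 0.53. None of these genes passed the adjusted threshold, and the part of these markers in the Prlr and Irs2 results was not tested. Counts are per gene, so the long and short receptor forms of Prlr, which differ in signalling, cannot be separated here.

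**Figure D4:**
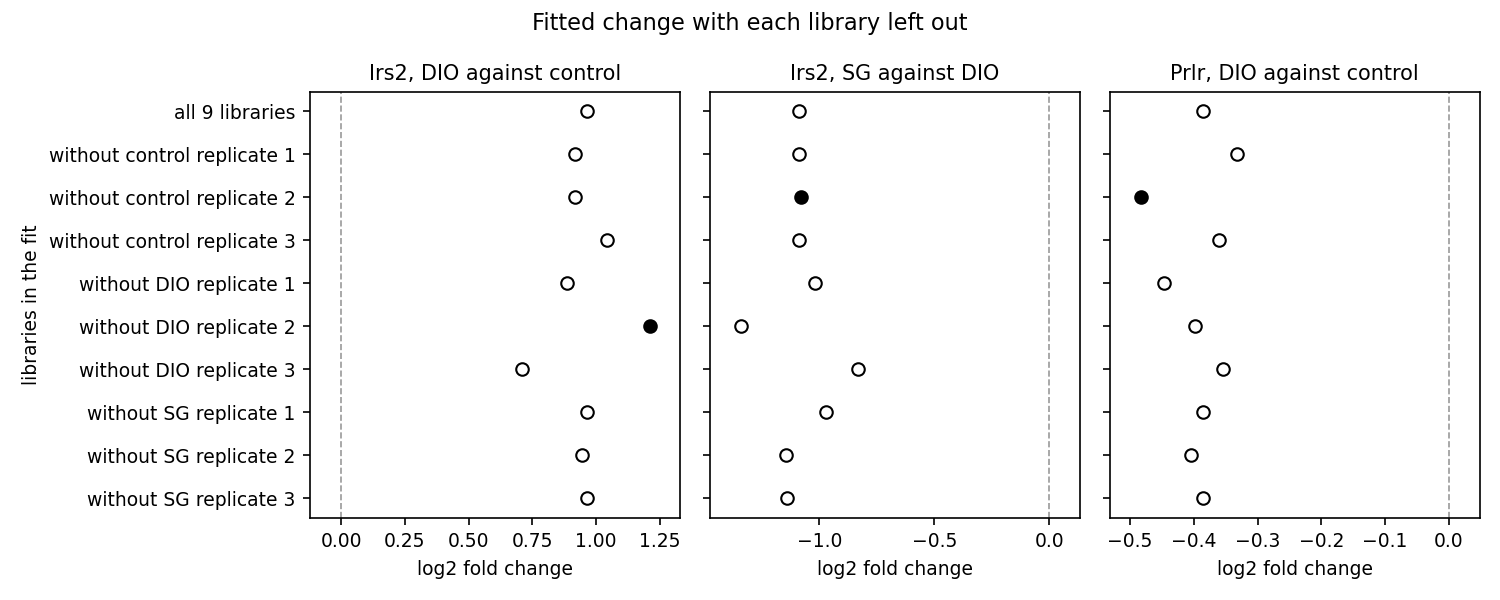
Fitted log2 fold change of Irs2 and Prlr with all 9 libraries and with each left out in turn; filled points have an adjusted p under 0.05, open points do not. All points keep their side of 0. Those filled are Irs2 without DIO 2 in DIO against control (1.21), Irs2 without control 2 in SG against DIO (-1.08) and Prlr without control 2 in DIO against control (-0.48).

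Ghr, the growth hormone receptor, was the most abundant of the 3 cytokine-type receptors among the 9 genes and overlapped between all groups. Its libraries ranged over 51.7 to 67.5 CPM (control), 47.6 to 55.8 CPM (DIO) and 51.6 to 67.6 CPM (SG). The fold difference was 0.891 for DIO against control (interval 0.735 to 1.08, adjusted p = 0.700), 1.11 for SG against DIO (0.916 to 1.35, adjusted p = 0.765) and 0.990 for SG against control (0.816 to 1.20, adjusted p = 0.985).

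Lepr, the leptin receptor, was scarce, and its group difference rested on control 2. It measured 3.17, 7.79 and 1.83 CPM in control 1 to 3, 2.65, 1.44 and 2.55 CPM in DIO and 3.10, 1.56 and 2.22 CPM in SG, from 55 to 346 counts a library. Control 2 was the highest of all, and without it the control values lay within or close to the range of the other groups. The log2 difference was -0.95 for DIO against control (SE 0.48, 0.519-fold, interval 0.249 to 1.08, adjusted p = 0.537) and -0.90 for SG against control (SE 0.48, adjusted p = 0.668). Without control 2 these were -0.19 and -0.13. SG and DIO differed by 0.05 (SE 0.48, 1.04-fold, interval 0.494 to 2.17, adjusted p = 0.986), a range too wide to call the groups alike.

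Control 2 was also the highest library for adipocyte, B cell, T cell, parotid acinar and mucous acinar markers. The other lists, among them fibroblast, red blood cell and skeletal muscle markers, were highest in another library. Control 2 was second for macrophage markers (80.9 CPM, with 85.0 in DIO 1) and endothelial markers (114 CPM, with 116 in SG 3). Mucous markers (4 genes) summed to 2388 CPM in control 2 and 989 to 1678 CPM in the other 8 libraries. Adipocyte markers (10 genes) summed to 202 CPM there and 35.2 to 66.1 CPM in the other 8 libraries, with Plin1 at 0 in DIO 3 and SG 3. B cell markers summed to 117 CPM there and 0.433 to 39.8 CPM elsewhere, and Cr2, Fcer2a, Cxcr5 and Pax5 were at 0 in control 3. Parotid markers summed to 33973 CPM against at most 8246 CPM elsewhere. The part of these markers in the Lepr level was not tested, and the difference without control 2 is given above.

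**Figure D5:**
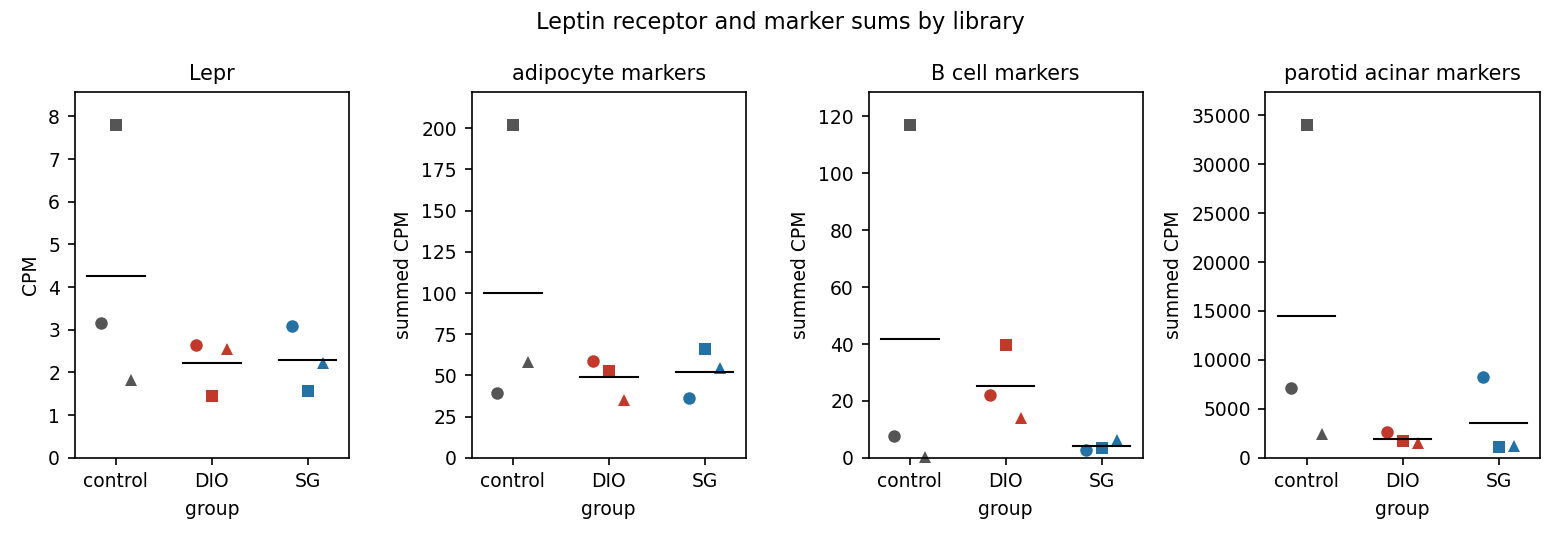
CPM of Lepr and summed CPM of adipocyte, B cell and parotid acinar markers in each library, by group; bars are group means and marker shape gives the replicate number (circle 1, square 2, triangle 3). Control 2 is the highest library in all 4 panels, with Lepr at 7.79 CPM and adipocyte markers at 202 CPM.

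The adiponectin receptors were the most abundant of the 9 by FPKM and overlapped between groups. Adipor1 ranged over 95.9 to 104 CPM (control), 91.4 to 112 CPM (DIO) and 87.0 to 112 CPM (SG), and Adipor2 over 64.7 to 72.8, 68.2 to 76.6 and 66.5 to 70.1 CPM. For Adipor1 the fold difference was 1.01 in DIO against control (interval 0.850 to 1.20), 1.02 in SG against DIO (0.862 to 1.21) and 1.03 in SG against control (0.870 to 1.23), with adjusted p-values of 0.983, 0.962 and 0.944. For Adipor2 it was 1.03 (0.911 to 1.17), 0.947 (0.835 to 1.07) and 0.978 (0.863 to 1.11), with adjusted p-values of 0.895, 0.828 and 0.946. The sign of the Adipor1 differences turned with the normalization, to -0.01 in DIO against control with DESeq2 size factors and to -0.04 in SG against DIO with library totals, on the log2 scale. Adipor1 stood at 1.63 to 2.05 times Adipor2 by FPKM in the 9 libraries, and this ratio differed by 0.11 at most between group means on the log2 scale (exact permutation p = 0.400 to 0.700).

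Transcripts of the hormones themselves were scarce in the glands. Igf1, which many tissues also make locally, measured 3.19, 10.97 and 2.26 CPM in control 1 to 3, 1.93 to 2.77 CPM (DIO) and 1.75 to 2.67 CPM (SG), with control 2 the highest. Leptin (Lep) was at or below 0.801 CPM in all 9 libraries. Adiponectin (Adipoq) was at 9.75 CPM in control 2 and at or below 1.70 CPM in the other 8. Of the 4 tested ligands (Igf1, Igf2, Lep and Adipoq), 0 passed the threshold in any comparison.

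The genes that pass on or restrain these signals were counted in lists chosen with earlier results of these data known. Of 30 relay genes of insulin and IGF signalling, 0 passed the threshold in any comparison, and the median log2 fold changes were 0.01 (DIO against control, 17 higher and 13 lower), -0.02 (SG against DIO, 11 and 19) and 0.02 (SG against control, 16 and 14). Of all genes tested, 51.7%, 49.0% and 50.3% had a value above 0 in these comparisons, which are given in the same order below. By smallest unadjusted p, Foxo3, a FoxO factor, measured 58.9 ± 1.78 CPM in control and 70.4 ± 2.16 CPM in DIO (difference 0.26 on the log2 scale, adjusted p = 0.265), and the adaptor Shc1 64.9 ± 2.35 CPM in control and 51.5 ± 3.59 CPM in DIO (-0.33, adjusted p = 0.309). Of 15 tested brakes of the pathway, 0 passed, with 9, 6 and 8 higher and medians of 0.07, -0.09 and 0.01. Among them Ptpn1, the phosphatase that acts on the insulin and leptin receptor pathways, measured 42.9 ± 4.39 CPM in control, 52.0 ± 5.69 in DIO and 43.2 ± 1.02 in SG (adjusted p = 0.372 for DIO against control and 0.495 for SG against DIO). Of 16 tested FoxO target genes 0 passed, with 10, 7 and 10 higher and medians of 0.03, -0.01 and 0.10. Of 11 tested IGF binding and clearance genes 0 passed, with 3, 8 and 2 higher and medians of -0.09, 0.03 and -0.03. Klf15, a metabolic transcription factor on the FoxO list, measured 82.1 ± 1.70 CPM in control and 58.5 ± 11.6 in SG (log2 fold change -0.49, adjusted p = 0.481).

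Downstream of the cytokine-type receptors, 0 of 16 JAK-STAT genes passed in any comparison, with 10, 4 and 5 higher and medians of 0.10, -0.08 and -0.05. Socs2, a feedback inhibitor induced by growth hormone and prolactin, measured 44.2 ± 2.45 CPM in control, 31.0 ± 4.55 in DIO and 37.2 ± 5.31 in SG (log2 fold change -0.51 for DIO against control, adjusted p = 0.212). Of the 16 genes, 2 were lower in every DIO library than in any control library, Socs2 among them (7.38% of all genes). The other direction held for 6 of the 16, higher in every DIO library (8.94% of all genes). Stat5b, a STAT that both receptors use, measured 37.9 ± 2.31 CPM in control and 45.4 ± 4.48 in DIO (0.26, adjusted p = 0.357). Of 14 tested class I cytokine receptors other than these, 0 passed, with 10, 4 and 4 higher and medians of 0.08, -0.27 and -0.15. The list holds the leukocyte receptor genes Il7r, Il2rg and Csf2rb, and the B and T cell marker sums that were lower in every SG library than in any DIO library stand beside it; their part was not tested.

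On the adiponectin side, 0 of 16 relay genes passed, with 4, 10 and 8 higher and medians of -0.14, 0.07 and -0.01. Asah2, a neutral ceramidase, measured 58.5 ± 3.81 CPM in control, 44.2 ± 1.36 in DIO and 51.2 ± 3.06 in SG (log2 fold change -0.41 for DIO against control, adjusted p = 0.118). Appl2, an adaptor that binds the adiponectin receptors, measured 173 ± 9.94, 146 ± 3.89 and 183 ± 11.8 CPM (-0.25 for DIO against control, adjusted p = 0.369, and 0.33 for SG against DIO, adjusted p = 0.409). Of 6 tested PAQR relatives of the receptors 0 passed (medians -0.09, 0.10 and 0.09), and of 17 other hormone receptors tested 0 passed (medians 0.07, -0.11 and -0.03). The gut hormone receptors Glp1r, Gipr, Cckar and Cckbr were too low to test, with at most 15, 4, 1 and 4 counts in a library.

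For each of the 9 genes the genes whose log2 CPM followed it most closely over the 9 libraries were sought among 11035 genes with at least 2 CPM. Irs2 was closest to Ust, a sulfotransferase (Pearson r 0.94), and Zfp954, a zinc finger gene (0.93). By rank these 2 were less close to Irs2 (Spearman rho 0.83 and 0.68). Prlr was closest to Rpap2 (0.98) and Zscan26 (0.95), Igf1r to Patj (0.93) and Klf11 (0.92), and Irs1 to Fpgt (0.94) and to Pdpk1 (0.93), the kinase that activates Akt. Insr was closest to Fra10ac1 (0.95) and Usp33 (0.94), Ghr to Ube2w (0.95) and Sptssa (0.95), and Lepr to Lcor (0.97) and Itih2 (0.97). Adipor1 was closest to Triap1 (0.98) and Bzw2 (0.97), and Adipor2 to Syn2 (0.96) and Gtpbp6 (0.94). These are the highest of many correlations over 9 libraries that share group and library effects, and they describe likeness only.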

How the data were processed

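RNA was isolated with TRIzol and made into libraries with a VAHTS Universal V6 kit, per the labels' protocols. HISAT2, Salmon and build GRCm39 are named in the submitters' processing notes, without versions or roles; the sources used here do not give the annotation, the strand setting or the treatment of multi-mapping reads. Whole-number counts per gene and FPKM values per gene are the 2 tables the authors deposited. The counts were tested with edgeR 4.0.16 in R 4.3.3 (filterByExpr by group, TMM, quasi-likelihood F test, 1 fit of 9 libraries, Benjamini-Hochberg over 14912 genes, threshold 0.05), with 6 residual and 4.90 prior degrees of freedom. Ratios used the deposited FPKM. DESeq2 1.42.0 and limma 3.58.1 on log2(FPKM + 0.1) served as alternatives, beside other scalings, no filter, a replicate block, fits of 2 groups and leaving out each library. The fit was checked on counts simulated with group differences only and with spread that followed edgeR's trend over genes. That check held no library set apart like control 2 and no wider spread of single genes, so it does not cover these features. Replicates differed by 28.3 to 216 in chi-square per degree of freedom, so none was a copy.

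The 9 genes, the gene lists and the tests were chosen with earlier results of these data known. Named genes are the 9, up to 4 genes with the smallest p per list and comparison, and the 2 closest in pattern to each of the 9. Promoters and gene overlaps come from GRCm38 tables, another build than the files', and were matched by symbol. No batch is named in the labels.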

Additional observations from a re-analysis of the deposited data

How the results depend on the processing

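Genes called in DIO against control numbered 14 as reported, 22 with library totals, 37 with no filter, 185 with DESeq2 and 4 in a fit of the 2 groups, and 0 (without DIO 1) to 140 (without control 2) with 1 library left out. For SG against DIO the 0 calls became 6 with no filter, 80 with DESeq2 and 179 in a fit of the 2 groups, and ran from 0 to 117 (without control 2). For SG against control they became 3 with no filter, 54 with DESeq2 and 2 with limma, and ran from 0 to 6 (without SG 1). Of the 9 genes, DESeq2 called 2, 1 and 0 in these comparisons and 1 (Irs2) for any difference among the groups, where no filter also called 1; with 1 library left out, 0 to 1, 0 to 1 and 0 were called. The cause was not tested.

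Of 432 alternative values for the 9 genes, 389 kept their direction and side of the threshold, 6 passed it and 37 turned in sign, on the log2 scale as follows. Adipor1 in DIO against control gave -0.0066 with DESeq2 size factors, -0.0050 with no filter and -0.0061 with DESeq2, and in SG against DIO -0.039 with library totals and -0.050 with limma. With library totals and limma, Insr gave 0.025 and 0.020 (DIO against control), 0.013 and 0.012 (SG against control) and -0.012 and -0.0078 (SG against DIO), Lepr -0.037 and -0.024 (SG against DIO) and Irs1 0.014 and 0.023 (SG against control). Ghr in SG against control gave 0.0025 with library totals. Library totals moved the median of all genes to 0.10 in DIO against control and -0.08 in SG against DIO. With 1 library left out, signs turned for Adipor1 (-0.074 to 0.053 in DIO against control, -0.032 to 0.15 in SG against control, -0.026 to 0.14 in SG against DIO), Adipor2 (-0.0026 to 0.066, DIO against control), Ghr (-0.14 to 0.10, SG against control), Insr (-0.057 to 0.041, SG against control), Irs1 (-0.38 to 0.0089, DIO against control, and -0.13 to 0.17, SG against control) and Lepr (-0.23 to 0.28, SG against DIO). The ratio of Adipor1 to Adipor2, which is not among the 432 values, also turned in sign with 1 library left out (-0.093 to 3.7e-04, DIO against control).

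Same-numbered libraries of different groups correlated at -0.09 to 0.31 in their deviations from group means, and differently numbered ones at -0.32 to 0.25. The highest value was that of control 3 and DIO 3, but the ranges overlapped, and the numbers were not taken to pair the samples. A replicate block gave 18, 0 and 0 genes called, 0 of the 9, and turned Irs1 in SG against control to 0.017.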

Other observations

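Transcripts of prolactin (Prl) and growth hormone (Gh), the ligands of Prlr and Ghr, were counted in 2 libraries only. Prl stood at 0.270 CPM in control 2 and 2.99 CPM in SG 2 and was at 0 in the other 7 libraries. Gh stood at 0.0451 and 0.156 CPM in the same libraries, at most 6 counts, and was at 0 in the rest. SG 2 also had the highest summed level of 9 skeletal muscle markers, 40.4 CPM, beside 3.03 to 4.88 CPM in the other 8 libraries. Both genes were too low to test.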
